A study of Homo sapiens with 12 samples.

Results

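The folding machinery of the cell was followed at 10 of its genes through the peaks of the nuclease-dead proteins REXO4-D386A and RNaseH1-D210N: HSPA1A, HSPA1B, HSPA8, HSPA5, HSPH1, HSP90AA1, HSP90AB1, DNAJB1, DNAJA1 and BAG3. They are a list of names whose rule uses no measured value, although it was drawn up with earlier results of these data known, and are 10 of the 19866 protein-coding genes that had a usable position in the RefSeq gene table (GRCh38.p14). Every peak that overlapped a gene or the 5 kb on either side of it by at least 1 bp was taken. For 7 of the genes (HSPA1A, HSPA1B, HSPH1, HSP90AA1, DNAJB1, DNAJA1 and BAG3) strong induction by heat shock is textbook knowledge, and they are called stress-induced here, although DNAJA1 is also expressed in unstressed cells. The other 3 (HSPA8, HSPA5 and HSP90AB1) are abundant in unstressed cells and are called constitutive, although HSPA5 is induced when unfolded proteins collect in the endoplasmic reticulum (ER).

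Chaperones of the HSP70 family bind unfolded stretches of protein in cycles of ATP hydrolysis. J-domain proteins start that cycle, nucleotide exchange factors such as HSPH1 and BAG3 reset it, and HSP90 chaperones take over partly folded clients. Under heat shock, the transcription factor HSF1 binds heat shock elements in the promoters of many of these genes, where RNA polymerase II is often already paused. An R-loop is a structure in which RNA pairs with 1 strand of the DNA and displaces the other, and such structures are known from active promoters rich in G and C.

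The cells were U2OS, a human osteosarcoma line, with a stably integrated tet-on transgene, so that doxycycline switches the tagged protein on. One line made REXO4-D386A, from a member of the RNA exonuclease family, and the other RNaseH1-D210N, from the enzyme that cuts the RNA of RNA:DNA hybrids. Both mutants are nuclease-dead and were precipitated through a Flag tag. Cells of each line got doxycycline at 1 µg/ml for about 60 h or none, and either way 2 ChIP libraries and 1 input were made, which gives 12 libraries in 8 groups. The question was whether the proteins bind R-loops. The labels record no heat shock or other stress, so the values below belong to cells that were not deliberately stressed. The labels name no deletion of the endogenous genes and do not say whether a line is 1 clone. Peak lists hold no expression values, so the labelled cell type was not checked against markers.

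The values are 2 peak lists, 1 per protein, with 1460 peaks for REXO4 and 54623 for RNaseH1. They give no value per library, so no difference below has a replicate error and none was tested. Fold enrichment is the authors' ratio of the signal at a peak's summit to its expected level, and it was compared only within a list. Behind a median RNaseH1 peak stood 23 fragments at the summit against an expected 7.14, and behind a median REXO4 peak 80 against 36.6. The 95% intervals given with folds are exact Poisson intervals of those fragments. They cover the counting error of the fragments only and take the expected level as known. Which libraries, with or without doxycycline, went into each list is not known, and no separate list for cells without doxycycline was used here.

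RNaseH1 peaks lay at most of these genes and REXO4 peaks at none. Of the 10 genes, 9 had at least 1 RNaseH1 peak in the gene or 5 kb around it, where 82.1% of all protein-coding genes had one and 81.4% of those within the same range of gene length (2400 to 59008 bp). A peak overlapped the gene itself in 8 of 10 (76.6% of all coding genes). In 8 of 10 a peak came within 1 kb of an annotated start of the gene (68.7%), and in 7 of 10 a peak covered such a start (60.9%). With 10 genes, these counts are close to those shares. HSP90AA1, HSP90AB1, DNAJB1 and BAG3 had 3 or more peaks each, 4 of 10 genes against 34.7% of all coding genes and 28.9% of those in the length range. REXO4 peaks were found at 0 of 10 genes, where 6.16% of all coding genes and 4.88% of those in the length range had one, so a count of 0 is near the background as well.

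The promoters of the genes on which the account turns are printed here so that the heat shock elements can be seen beside the peaks. They come from the RefSeq table of promoters (GRCh38.p14), which matched all 10 genes and holds 15 annotated starts for them, and are written 5′ to 3′ on the strand of the gene. The heat shock element is built of inverted units of GAA. It was searched on both strands as 2 units, GAANNTTC or TTCNNGAA, and as 3 units in a row, where each 3-unit match contains 2 overlapping 2-unit matches. In the 250 bases before the starts of HSPA1A (chr6:31815293-31815542, plus strand) and HSPA1B (chr6:31827488-31827737, plus strand), capitals mark a 2-unit heat shock element and the TATA box TATAAA.
HSPA1A: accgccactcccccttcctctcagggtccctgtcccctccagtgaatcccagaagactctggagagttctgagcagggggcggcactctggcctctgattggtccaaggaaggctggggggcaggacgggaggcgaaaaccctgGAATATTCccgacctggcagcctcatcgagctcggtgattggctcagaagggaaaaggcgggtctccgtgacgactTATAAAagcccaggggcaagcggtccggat
HSPA1B: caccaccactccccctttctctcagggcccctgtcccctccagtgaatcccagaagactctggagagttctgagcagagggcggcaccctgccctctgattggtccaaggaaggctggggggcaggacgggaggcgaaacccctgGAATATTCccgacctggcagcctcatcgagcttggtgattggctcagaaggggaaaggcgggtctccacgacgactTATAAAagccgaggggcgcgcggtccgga

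In those of HSP90AA1 (chr14:102087045-102087294, minus strand, the start nearer the gene's 3′ end) and DNAJB1 (chr19:14518398-14518647, minus strand, the middle of 3 starts), capitals mark the 2-unit elements, which in HSP90AA1 include 1 run of 3 units.
HSP90AA1: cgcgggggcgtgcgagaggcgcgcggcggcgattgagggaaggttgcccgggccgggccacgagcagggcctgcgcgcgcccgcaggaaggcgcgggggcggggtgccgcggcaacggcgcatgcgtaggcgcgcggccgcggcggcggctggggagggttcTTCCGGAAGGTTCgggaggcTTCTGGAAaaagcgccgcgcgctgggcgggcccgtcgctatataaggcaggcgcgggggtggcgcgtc
DNAJB1: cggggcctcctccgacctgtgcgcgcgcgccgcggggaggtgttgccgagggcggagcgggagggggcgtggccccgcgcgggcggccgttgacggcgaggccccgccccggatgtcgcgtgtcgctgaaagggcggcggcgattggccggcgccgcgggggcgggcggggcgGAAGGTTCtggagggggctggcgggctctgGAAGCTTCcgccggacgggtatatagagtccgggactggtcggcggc

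In the 250 bases before HSPA5 (chr9:125241344-125241593, minus strand), capitals mark the ER stress element, searched on both strands as CCAAT, 9 bases of any kind, then CCACG. The CCAAT at its front also counts as a CCAAT box.
HSPA5: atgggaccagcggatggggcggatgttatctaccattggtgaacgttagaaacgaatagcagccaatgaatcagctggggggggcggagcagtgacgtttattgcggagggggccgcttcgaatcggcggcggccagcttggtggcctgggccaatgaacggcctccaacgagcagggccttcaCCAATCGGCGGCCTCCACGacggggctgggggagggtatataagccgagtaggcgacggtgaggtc

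The 3-unit elements of HSPA8 (chr11:123062345-123062374 and chr11:123062170-123062199, minus strand), HSP90AB1 (chr6:44247770-44247799 and chr6:44247823-44247852, plus strand) and DNAJA1 (chr9:33025268-33025297, plus strand) are shown with a few bases on either side, with the 3 units in capitals.
HSPA8 site 1: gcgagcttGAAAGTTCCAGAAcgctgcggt
HSPA8 site 2: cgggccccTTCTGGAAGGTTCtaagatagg
HSP90AB1 site 1: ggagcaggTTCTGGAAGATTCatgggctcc
HSP90AB1 site 2: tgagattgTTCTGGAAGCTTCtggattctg
DNAJA1 site 1: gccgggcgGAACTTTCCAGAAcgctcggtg

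HSPA1A and HSPA1B, neighbouring genes for near-identical heat-inducible HSP70 proteins, were the members without an RNaseH1 peak at their start. HSPA1A (gene ID 3303, chr6:31815543-31817942, plus strand, 2400 bp) had no peak in its window. The nearest one, chr6:31806640-31806967, lay 8.58 kb from the gene beside LSM2 and had a fold of 2.83. HSPA1B (gene ID 3304, chr6:31827738-31830254, plus strand, 2517 bp) had a single peak, chr6:31834722-31835202, 481 bp wide. That peak lay 4468 bp past the end of HSPA1B on SNHG32, a host gene of small nucleolar RNAs, with a fold of 3.09 (95% interval 2.06 to 4.47) and a −log10 q of 4.74. Both HSP70 genes are short, and among coding genes within 20% of their length, 31.4% of 640 (HSPA1A) and 33.1% of 685 (HSPA1B) had no RNaseH1 peak either.

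**Figure D1:**
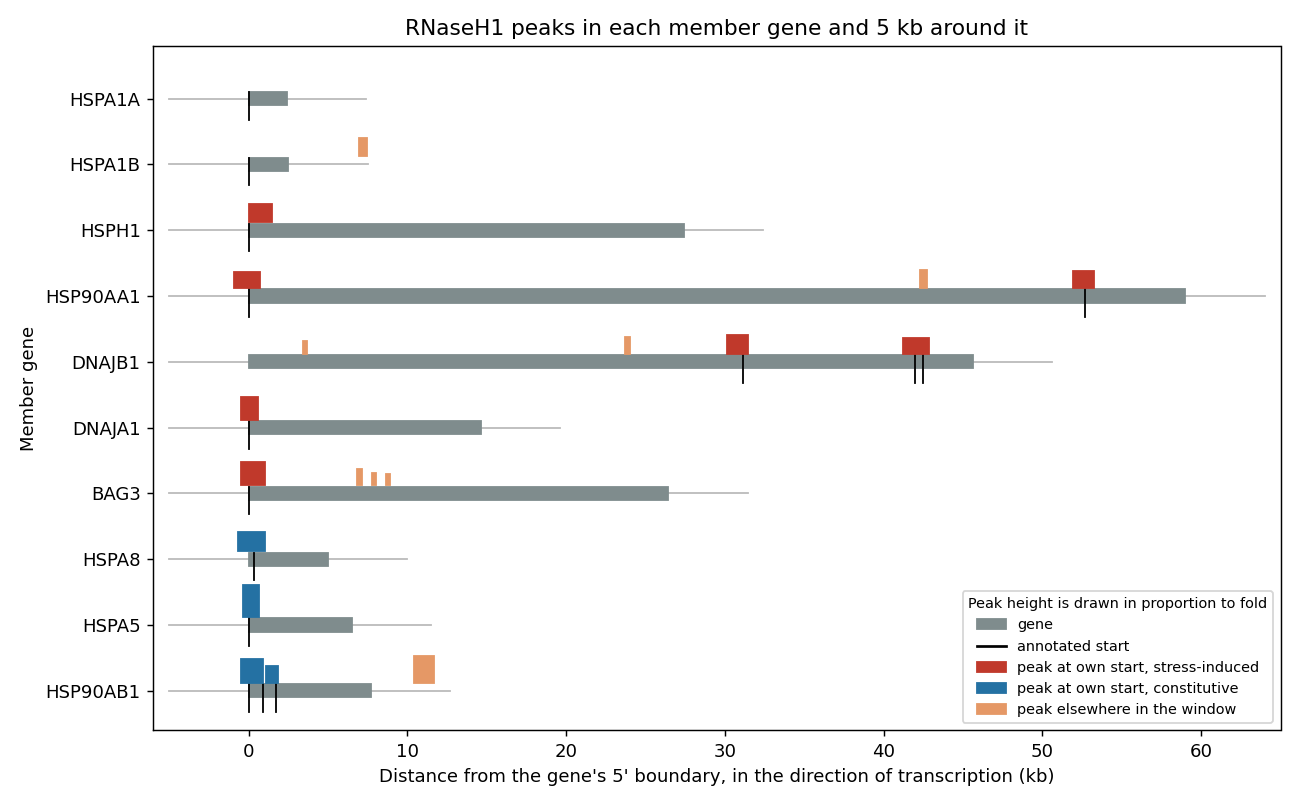
Map of the 10 member genes, each drawn in the direction of transcription, with distance from the gene's 5′ boundary in kb on the x axis and 1 gene per line. Grey boxes are genes, black ticks annotated starts, and coloured boxes RNaseH1 peaks to scale in width, with height in proportion to fold. Peaks cover a start in 7 genes and stop 24 bp short of it in HSPH1, while HSPA1A has none and HSPA1B has 1 beyond its 3′ end.

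The sequence around these starts is largely shared between the 2 genes. In the 250 bases before the start, 235 of 249 compared bases (94.4%) were identical between HSPA1A and HSPA1B at a shift of 1 base. Short reads from such stretches can map to either copy, and the sources used here do not say how the authors treated reads with several positions. Over all coding genes with a RefSeq start, those with a start at least 90% identical to another gene's start were covered by an RNaseH1 peak in 94 of 426 cases (22.1%), the rest in 9551 of 15416 (62.0%). GC content was not held constant between these 2 sets. The surroundings of the 2 genes also held few peaks: within 1 Mb, 32 of 87 coding genes around HSPA1A (36.8%) and 31 of 88 around HSPA1B (35.2%) had an RNaseH1 peak, against 82.1% of all coding genes. Because the 2 genes are neighbours, these 2 counts cover nearly the same genes and are 1 observation. Alternate contigs of chromosome 6, of which 12 carried peaks, held 444 RNaseH1 peaks. The part of sequence identity, alternate contigs and neighbourhood in the missing HSPA1A and HSPA1B peaks was not tested.

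HSPA8 carried a peak at its start although its neighbourhood held few as well. This gene (gene ID 3312, chr11:123057489-123062462, minus strand) encodes HSC70, the HSP70 protein of unstressed cells. Its 1 peak, chr11:123061430-123063154, was 1725 bp wide, the widest of all 19 member peaks, and wider than 96.6% of RNaseH1 peaks near coding starts. Its fold was 3.28 (2.75 to 3.88), from 133 fragments against an expected 39.9. The summit lay 775 bp upstream of the start, and the peak also overlapped LOC124902775. Both 3-unit heat shock elements printed above lay under the peak, 551 and 726 bp from the summit. Only 8 of 21 coding genes within 1 Mb (38.1%) had an RNaseH1 peak.

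**Figure D2:**
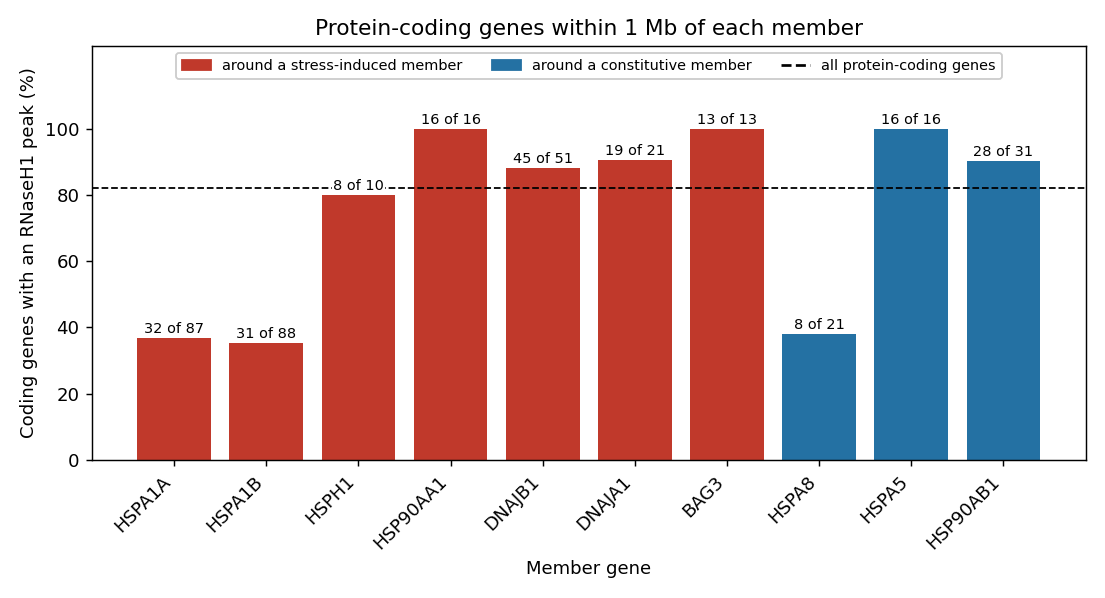
Share of protein-coding genes within 1 Mb of each member (y axis, percent) that had an RNaseH1 peak in the gene or 5 kb around it, with the counts above the bars, bars coloured by class and the share over all coding genes, 82.1%, as a dashed line. HSPA1A, HSPA1B and HSPA8 stand between 35.2% and 38.1%, and the other 7 members between 80% and 100%. The bars of HSPA1A and HSPA1B cover nearly the same genes.

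HSPA5 had the highest fold of the 10 genes. It encodes BiP, the HSP70 protein of the ER lumen, and is a classical target of the unfolded protein response (gene ID 3309, chr9:125234853-125241343, minus strand). Its peak, chr9:125240686-125241681, was 996 bp wide, with a fold of 5.36 (4.74 to 6.03), from 269 fragments against an expected 49.4, and a −log10 q of 100.5. This fold was above 98.0% of all RNaseH1 peaks, and as a gene's highest fold it was above 95.9% of coding genes with a peak. The summit lay 198 bp downstream of the start, and the peak also covered part of HSPA5-DT, the divergent transcript on the other strand. The ER stress element, 66 bases before the start, was under the peak, 255 bp from its summit. That element occurred in 27 of 35116 promoters in the table (0.0769%).

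HSPH1, the HSP110 protein that exchanges nucleotide on HSP70, had a peak just inside the gene (gene ID 10808, chr13:31134973-31162388, minus strand). The peak, chr13:31160911-31162364, was 1454 bp wide and stopped 24 bp short of the annotated start, with its summit 645 bp downstream. Its fold of 3.09 (2.54 to 3.73) was close to the median of all RNaseH1 peaks, 3.07. HSPH1 had the lowest GC content of the member starts, 51.7%, and none of the searched motifs. It was also the member nearest to a REXO4 peak, which lay 37.5 kb away with a fold of 1.72.

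HSP90AA1 and HSP90AB1, the inducible and the constitutive cytosolic HSP90 genes, each carried 3 RNaseH1 peaks. At HSP90AA1 (gene ID 3320, chr14:102080742-102139749, minus strand), peaks covered both annotated starts. The one at the start nearer the 3′ end, chr14:102086476-102087793, was 1318 bp wide with a fold of 2.94 (2.53 to 3.40), and its summit lay 148 bp downstream of the start. The 3-unit heat shock element printed above lay under it, 88 bases before the start. At the distal start, chr14:102139049-102140633 was 1585 bp wide with a fold of 2.71 (2.22 to 3.28). It also overlapped WDR20, a neighbour on the other strand, and came within 1 kb of a WDR20 start. Between them, inside the gene and 10158 bp upstream of the nearer start, chr14:102096993-102097427 was 435 bp wide with a fold of 3.05 (1.85 to 4.79). The fold of this narrow peak is the highest of the 3 at HSP90AA1, but it rests on 17 fragments, and its interval takes in the folds of both peaks at the starts.

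Peaks at HSP90AB1 (gene ID 3326, chr6:44246194-44253883, plus strand) covered all 3 annotated starts and lay in a row. The first, chr6:44245726-44247113, was 1388 bp wide with a fold of 3.98 (3.20 to 4.91), and its summit lay 322 bp downstream of the first start. The second, chr6:44247286-44248059, was 774 bp wide with a fold of 2.85 (2.40 to 3.36), and it held both 3-unit heat shock elements, 165 and 112 bases before the third start. The intervals of these 2 folds overlap slightly. The third peak, chr6:44256605-44257873, 1269 bp wide with a fold of 4.61 (3.80 to 5.54), lay 2722 bp past the gene's end, at the start of SLC35B2, a gene for a nucleotide sulfate transporter. The highest fold in the HSP90AB1 window therefore stands at the start of another gene, and without that peak the highest fold was 3.98.

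**Figure D3:**
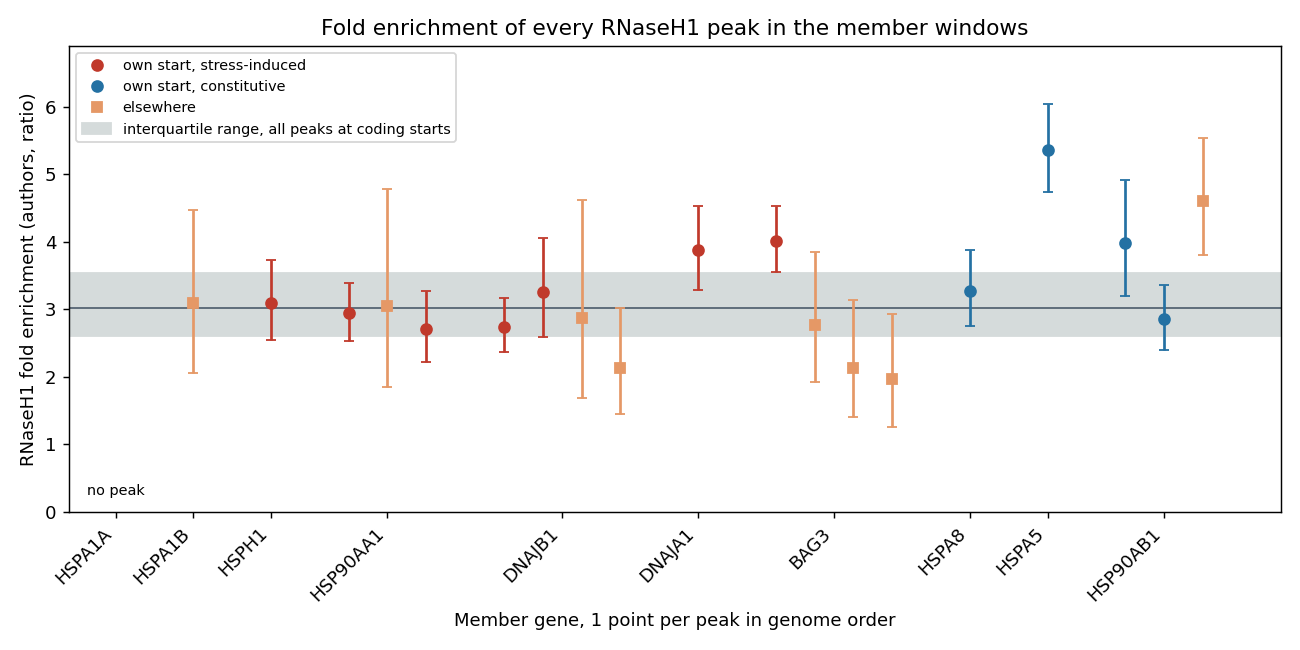
Fold enrichment (y axis, the authors' ratio) of each of the 19 RNaseH1 peaks by member gene, with 95% counting intervals. Circles are peaks at an own start, coloured by class, and squares are peaks elsewhere in the window. The grey band is the interquartile range of the 12395 RNaseH1 peaks near coding starts and the line their median, 3.02, and the HSPA5 peak stands highest, at 5.36.

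DNAJB1 and DNAJA1 encode J-domain proteins that deliver clients to HSP70 and start its cycle. At DNAJB1 (gene ID 3337, chr19:14514769-14560391, minus strand), the peak chr19:14517561-14519161 covered 2 starts, was 1601 bp wide and had a fold of 2.74 (2.36 to 3.17), with a −log10 q of 28.3. Under it lay the 2-unit heat shock elements 77 and 47 bases before the middle start. A second peak, chr19:14528955-14530250, 1296 bp wide with a fold of 3.26 (2.59 to 4.06), covered the distal start. It also overlapped MIR639 and TECR, a gene of fatty acid elongation, and came within 1 kb of a TECR start. The other 2, chr19:14536368-14536681 (314 bp, fold 2.87, 1.69 to 4.62) and chr19:14556678-14556980 (303 bp, fold 2.13, 1.45 to 3.03), lay farther upstream, where the annotated DNAJB1 and TECR overlap. Of the 4 peaks in the DNAJB1 window, 3 can thus be assigned to TECR as well.

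DNAJA1 (gene ID 3301, chr9:33025273-33039907, plus strand) had a single peak, chr9:33024805-33025841, 1037 bp wide. Its fold was 3.87 (3.29 to 4.53), from 155 fragments against an expected 39.3. The summit lay 18 bp upstream of the start, closer than at any other member, and 27 bp from the middle of the 3-unit heat shock element that begins 3 bases after the start. This peak also overlapped APTX, a DNA repair gene on the other strand, and came within 1 kb of an APTX start.

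BAG3, a nucleotide exchange factor of HSP70 that also works in selective autophagy, had the strongest start peak of the stress-induced genes (gene ID 9531, chr10:119651380-119677819, plus strand). The peak, chr10:119650897-119652443, was 1547 bp wide, with a fold of 4.02 (3.55 to 4.53), 266 fragments against an expected 65.5 and a −log10 q of 72.7. Its summit lay 155 bp downstream of the start. A cluster of 3 small peaks followed inside the gene, with summits 6948, 7829 and 8845 bp downstream of the start. They were 324, 257 and 258 bp wide, had folds of 2.76 (1.93 to 3.85), 2.13 (1.40 to 3.13) and 1.96 (1.26 to 2.93), and were much weaker than the start peak. The last of them had a −log10 q of 1.16, the weakest of the 19 member peaks.

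The peaks at the members' own starts were broad. Of the 19 peaks, 11 reached to within 1 kb of an own start, and 8 lay elsewhere in the windows. The 11 were 774 to 1725 bp wide (median 1388), and each was wider than the median of the 12395 RNaseH1 peaks near coding starts, 739 bp. Their −log10 q ran from 15.7 to 100.5, also in 11 of 11 above the median of such peaks, 13.7. By fold they stood out less, with 7 of 11 above the median of 3.02 and a range of 2.71 to 5.36. The expected signal was 20.8 to 66.1 fragments (median 39.9) against a median of 23.8 at all coding starts, and it was above that median in 9 of 11. The larger −log10 q thus went with more fragments as well as with fold, and the part of this depth in the widths was not tested. Summits lay downstream of the start in 8 of 11, where 69.3% did near all coding starts.

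**Figure D4:**
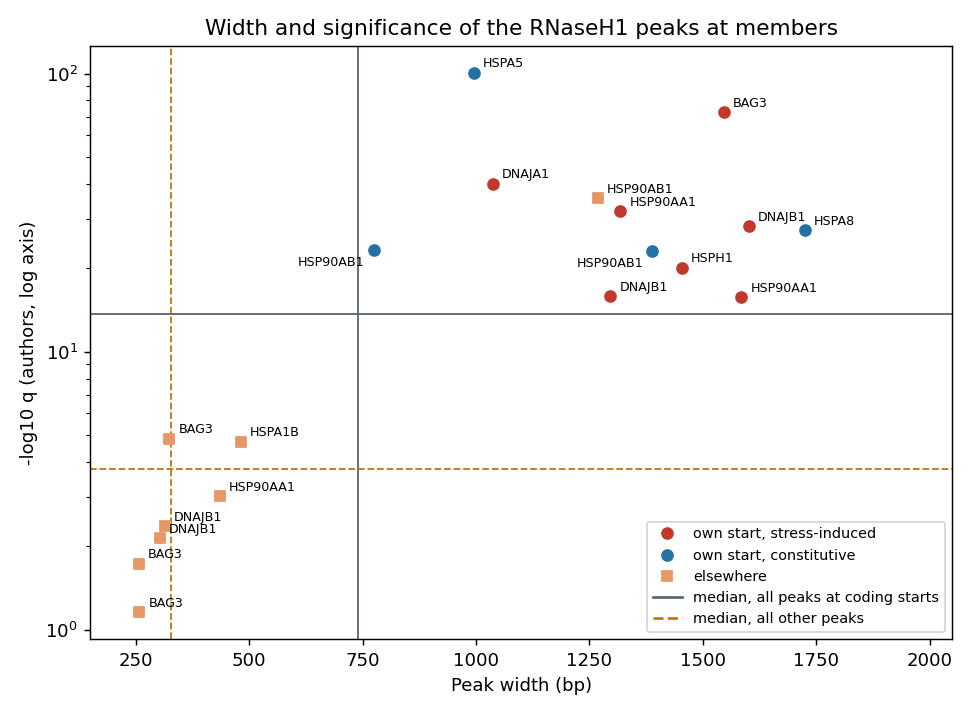
Width in bp (x axis) and −log10 q (y axis, log scale) of the 19 RNaseH1 peaks at members. Circles are peaks at own starts and squares peaks elsewhere. Solid lines are the medians of all peaks near coding starts (739 bp and 13.7) and dashed lines those of all other peaks (328 bp and 3.78). All 11 start peaks lie to the right of and above the solid lines, and of the 8 others only the HSP90AB1 peak at the start of SLC35B2 does.

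Away from their starts, the members carried small peaks. Of the 8, all but the HSP90AB1 peak at SLC35B2 were 257 to 481 bp wide with folds of 1.96 to 3.09 and −log10 q of 1.16 to 4.86. The peaks away from coding starts in the whole list had a median width of 328 bp, a median fold of 3.08 and a median −log10 q of 3.78. Peaks covered 0 to 19.4% of a member's window, with a median of 5.44%. HSP90AB1 had the highest share and HSPA8 the next, 11.5%. The HSP90AB1 share includes 1269 bp from the peak at the start of SLC35B2.

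Stress-induced and constitutive members overlapped in highest fold, in the width of their start peaks and in covered bases, and only slightly in the covered share of their windows. Peaks covered a median of 4.21% (0 to 6.55%) of the stress-induced windows and 11.5% (6.04 to 19.4%) of the constitutive ones. In bases, they covered 0 to 3514 bp and 996 to 3431 bp. The windows were 12400 to 69008 bp long for the stress-induced genes and 14974 to 17690 bp for the constitutive ones, so the share also depends on gene length. A peak was present at 6 of 7 stress-induced genes and 3 of 3 constitutive ones, and at an own start in 5 of 7 and 3 of 3. The 7 stress-induced genes held 14 peaks, 7 at own starts and 7 elsewhere, and the constitutive genes 5, with 4 at own starts. The highest fold in the window had a median of 3.18 (range 3.05 to 4.02) over the stress-induced genes with a peak and 4.61 (3.28 to 5.36) over the constitutive ones, a difference of -1.43 (stress-induced minus constitutive). All coding genes with a peak had a median of 3.52, between them. When the peaks were limited to own starts, as added after seeing the data, the medians were 3.26 (2.94 to 4.02) and 3.98 (3.28 to 5.36) and the difference was -0.722. Under that limit HSP90AB1 went from 4.61 to 3.98, HSP90AA1 from 3.05 to 2.94, and HSPA1B had no value. Without HSPA5 the difference was -0.767. The constitutive genes were also shorter, with a median of 6.49 kb against 26.4 kb, and with 7 and 3 genes that are not replicates the difference was not tested.

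Heat shock elements did not sort the members by their peaks. A 3-unit element stood in 172 of 35116 promoters (0.490%), each of 300 bases from 250 before to 50 after a start. Among the members it was found at HSPA8 (2), HSP90AA1 (1), HSP90AB1 (2) and DNAJA1 (1), 2 constitutive and 2 stress-induced genes, and all of these lay under an RNaseH1 peak. Over all coding starts with such an element, 39 of 89 (43.8%) were covered by an RNaseH1 peak, against 53.2% of those without. The 2-unit form, found in 13.5% of promoters, stood 106 bases before the start of HSPA1A and 105 before that of HSPA1B, both without a peak there, and at DNAJB1 with one. Coding starts with the 2-unit form were covered in 1015 of 2576 cases (39.4%) and those without in 10784 of 19599. HSPH1, BAG3 and HSPA5 had start peaks and no heat shock element match in the window searched, which says only that these letters are not in it. GC content was not held constant between starts with and without an element. The match is to letters, and binding of HSF1 was not measured.

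GC content varied widely among the member starts. It ran from 51.7% at HSPH1 to 78.7% at the middle DNAJB1 start, with 60.3% at HSPA1A and 62.3% at HSPA1B. Over 22175 coding starts, those under an RNaseH1 peak had a median of 67.7% and the others 53.3%. Between 55 and 65% GC, 55.8% of coding starts were covered, and HSPA1A and HSPA1B fell in that bin uncovered, while HSPA5 (61.3%) and HSPA8 (62.7%) fell in it covered. At 75% or more, 80.4% were covered, as were the starts of BAG3, HSP90AA1 (nearer start) and DNAJB1 (both starts at its 3′ end) in that bin.

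Distances from the members to the nearest REXO4 peak are given without those of other coding genes, which were not computed. They do not show whether members lie farther from REXO4 peaks than other genes do. After HSPH1, the nearest lay 194.6 kb from BAG3 and 307.9 kb from DNAJB1, 463.5 kb from HSPA5 and 500.4 kb from HSPA8. For DNAJA1 and HSP90AA1 the distance was 637.1 and 637.6 kb. HSPA1A, HSPA1B and HSP90AB1, all on chromosome 6, lay 2407 kb or more from the nearest one. With no REXO4 peak nearer than 37.5 kb to a member, none of the 19 RNaseH1 peaks could overlap one. The REXO4 list holds 1460 peaks against 54623 for RNaseH1, and the overlapping share of all RNaseH1 peaks was not counted. The list also had a peak at 0 of 87 other chaperone and stress genes, counted in the gene and 5 kb around it, where 6.16% of all coding genes had one. That difference was not tested.

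The other genes of the folding machinery were taken from 10 lists with 87 genes, and 84 of them (96.6%) had an RNaseH1 peak, with a median highest fold of 3.43. Over all coding genes that share was 82.1%, so a full count in 1 of these small lists is near the background. The 3 without one were BAG6, and HSPB3 and HSPB8 of the small heat shock proteins. All 11 other HSP70 and HSP110 genes had a peak, with a median of 3.15. HSPA6, a strictly heat-inducible HSP70, showed 20.4, but that peak lay 3300 bp from the gene beside the tRNA genes TRL-CAG1-6 and TRG-TCC2-6, and HSPA9 (4.69) and HSPA4L (4.08) followed. The other HSP90 genes, TRAP1 (3.93) of mitochondria and HSP90B1 (3.74) of the ER, both had one. The TRAP1 peak lay 3401 bp outside the gene, with its summit within 1 kb of DNASE1.

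Among the 16 other J-domain genes, all with a peak and a median of 3.85, DNAJB4 reached 13.9 in a peak of 589 bp inside the gene, 668 bp from its start. DNAJB12 (5.16) and DNAJB2 (4.69) followed with peaks at their starts. The 4 BAG genes with a peak, led by BAG4 (3.87), BAG1 (3.57) and BAG2 (3.23), and the 7 small heat shock protein genes with one, led by HSPB6 (4.05), HSPB2 and CRYAB, had medians of 3.40 and 3.68. HSPB2 and CRYAB share 1 peak, of fold 3.74. The HSPB6 peak lay 961 bp outside the gene, with its summit within 1 kb of PROSER3.

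Of the 12 co-chaperone genes (median 3.21), FKBP5 (5.26) and STUB1 (5.21) were highest, both in peaks outside the gene, and HSPBP1 (3.95) came next with one at its start. The 10 chaperonin genes had a median of 3.40, led by CCT5 (6.28), CCT6A (4.12) and CCT2 (3.73). The CCT5 peak lay 45 bp outside the gene, with its summit within 1 kb of ATPSCKMT as well as of the CCT5 start. Heat shock factor genes, 5 of 5 with a peak, had a median of 3.12 and were led by HSF4 (3.68), HSF2 (3.63) and HSF5 (3.12), of which only the HSF2 peak lay in the gene. Like HSPA5, 13 of 13 other ER stress genes had a peak (median 3.41). HERPUD1, a gene of ER-associated degradation, reached 10.2 in a peak 1587 bp wide whose summit lay 25 bp from the start, and SDF2L1 (4.34) and DDIT3 (4.14) followed. The DDIT3 peak lay 1692 bp outside the gene, with its summit within 1 kb of MBD6. In the list of ubiquitin and other HSF1 target genes, 4 of 4 had a peak, among them UBB (3.44) and SERPINH1 (3.16), both with peaks at their starts.

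**Figure D5:**
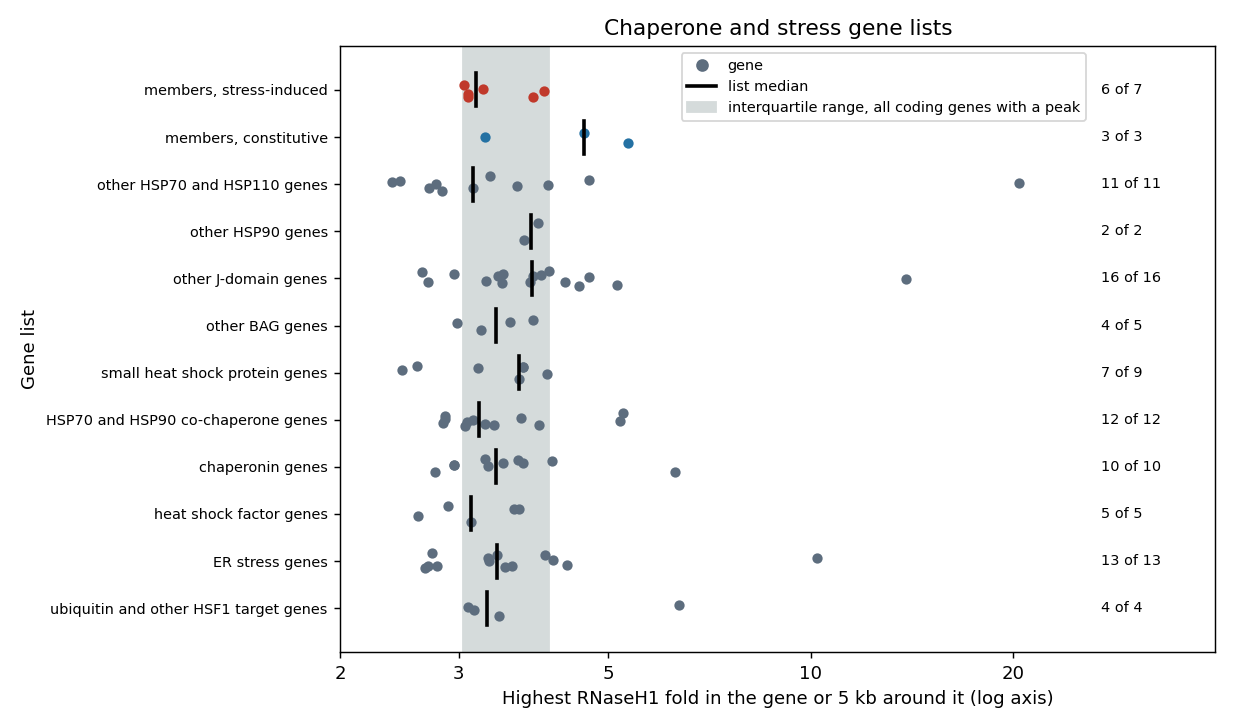
Highest RNaseH1 fold in the gene or 5 kb around it (x axis, log scale) for each gene of the 12 lists, members in colour, with the list median as a black bar and the number of genes with a peak at the right. The grey band is the interquartile range over all coding genes with a peak (3.04 to 4.08). The medians of the 10 other lists lie inside it, and HSPA6, DNAJB4 and HERPUD1 lie farthest to the right.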

How the data were processed

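Flag ChIP-seq and input libraries of the 2 U2OS lines were made as described above, and the values used were 2 deposited peak lists, 1 per protein. Per the submitters' processing notes, the build was hg38, peaks can be credited to MACS2 2.1.0.20150731, and deepTools 3.5.1, SAMtools 1.17, HISAT2 2.2.1, Trim Galore 0.6.10 and Cufflinks were also used. Nothing in the sources used here gives the control, the libraries, the pooling or the threshold of the peak calling. A ChIPseq2 label in all peak names may or may not mean replicate 2, so a list may rest on 1 replicate. The largest q was 0.179 (REXO4) and 0.198 (RNaseH1). Fold enrichment is the authors' deposited ratio of the signal at the summit to its expected level, read here with 1 added to each. The −log10 p and −log10 q are the authors' deposited values too.

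All else was computed here. The fragments behind each peak were recovered as the whole number that yields the deposited p as a Poisson tail at the deposited fold, within 0.05 fragments, for 1459 of 1460 REXO4 peaks and all 54623 RNaseH1 peaks. In data simulated from each list, 100% of 998 RNaseH1 and 976 REXO4 peaks were recovered. The depth of the libraries is unknown. Genes came from a RefSeq table of 59792 genes, of which 58961 had a position in order on their chromosome and were kept, 19866 of them protein-coding. Starts and promoter sequences came from a RefSeq promoter table, which gave 22175 starts for 15842 coding genes. The background is the same count over all coding genes, and for starts over those 15842. Exons were not annotated here.

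The text names all 10 members, the genes their peaks overlap, the 3 genes of highest RNaseH1 fold in each other list, and genes without a peak where a list had 5 or fewer. One gene that this rule selects is not reported here. The members, classes and lists were chosen with earlier results of these data known. Other windows, q limits, summit-based counting, HSPA1A and HSPA1B as 1 locus and other class assignments were tried, and the limits to own starts and to peaks not at other genes were added after seeing the data. The software was pandas 2.3.3, SciPy 1.17.1, NumPy 2.4.6 and matplotlib 3.10.9 under Python 3.11.15.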

Additional observations from a re-analysis of the deposited data

How the results depend on the processing

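The number of members with an RNaseH1 peak stayed between 8 and 10 over 8 alternatives: HSPA1B dropped out with windows of 0 or 1 kb, with q of 1e-05 or less and without peaks at other genes, and HSPA1A came in at 10 kb. The 19 peaks became 12 with q of 1e-05 or less, where the small peaks inside BAG3, DNAJB1 and HSP90AA1 and that of HSPA1B were lost, and 25 at 10 kb. REXO4 peaks at members remained at 0 in all 7 alternatives. None of these could have added one, since the nearest REXO4 peak lay 37.5 kb from a member. The difference of medians between stress-induced and constitutive genes kept its sign in 9 of 9 alternatives, from -1.76 (10 kb) to -0.722 (0 kb, 1 kb, own starts only, or without peaks at other genes). Counting HSPA1A and HSPA1B as 1 locus could not change it, because HSPA1A had no value. Of 60 recomputed highest folds, 59 stayed within their counting interval, and HSP90AB1 moved to 6.75 at 10 kb. Most of the 59 were the same peak picked again, so they could not differ. The background shares became 81.4% and 4.88% in the members' range of gene length. No paired analysis was possible because the peak lists hold no value per library. A list without replicates, with library depth unknown, limits every value here.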

Other observations

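Other promoter letters showed their own shares under RNaseH1 peaks over all coding starts. Of 2099 starts with TATAAA in the window of 300 bases, 461 were covered, against 11338 of the 20076 without it, and HSPA1A and HSPA1B were the members with this match, 30 and 29 bases before their starts. With an ER stress element, 16 of 23 coding starts (69.6%) were covered, against 53.2% without. These are descriptions of one list, and GC content, which differs between such promoters, was not held constant.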
